A study of Mus musculus with 20 samples.

Results

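The cytosolic heat shock chaperones described here are 10 genes: Hspa1a, Hspa1b, Hspa8, Hspa4l, Hsp90aa1, Hsp90ab1, Hsph1, Dnajb1, Stip1 and Hspb1. They were taken by name, and every array probe whose accession RefSeq assigns to one of them was kept. That gave 17 probes of 10 genes, out of 41174 probes of which 24844 carried a name (17178 genes). All 17 could be tested, since in at least 1 group each had a signal well above background on every array. They were measured in mouse embryonic fibroblasts, mesenchymal cells grown out of mouse embryos, kept for 24 hours in medium with serum of female C3H/HeN mice. Serum came from mice irradiated at 4 Gy (10-day set), from non-irradiated mice of the 10-day set, from mice irradiated at 8 Gy (20-day set) and from non-irradiated mice of the 20-day set, with 5 arrays in each of these 4 groups. The regime is written as L/MDR in the labels, which do not expand it, and dose and number of days changed together, so that they cannot be told apart. The cells themselves were not irradiated in any group. The labels do not state whether the 5 arrays of a group stem from separate cultures or donors, and the spread behind each p-value may therefore be technical.

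Cytosolic chaperones bind unfolded stretches of other proteins and use ATP to release them for folding. The HSP70 proteins (here Hspa1a, Hspa1b and Hspa8) take clients from J-domain partners such as the product of Dnajb1, proteins of the HSP110 family (Hsph1 and Hspa4l) exchange their nucleotide, and the adaptor made by Stip1 hands clients on to HSP90 (Hsp90aa1 and Hsp90ab1). Small heat shock proteins such as Hspb1 hold unfolded proteins without ATP. Part of this machinery is constitutive (Hspa8, Hsp90ab1) and part is induced by heat shock factor 1 through heat shock elements in the promoter (Hspa1a, Hspa1b, Hsp90aa1, Dnajb1), which makes these genes common readouts of proteotoxic stress in fibroblasts.

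Signals below are log2 fluorescence intensities minus the 75th percentile of the array, so a change of 1 is 2-fold and every change is relative to that percentile. Levels of different probes were not compared. Between 23379 and 27656 probes per array were well above background, no spot was saturated, and arrays of a group correlated at 0.976 to 0.998. All 12 fibroblast markers were well above background on all 20 arrays. The arrays lay on 7 slides, numbered here from the barcodes in the file headers: 10-day control replicates 1 to 4 on slide 1, 10-day control replicate 5 with 4 Gy replicates 1 and 2 on slide 2, and 4 Gy replicates 3 to 5 on slide 3. In the 20-day set slides 6 and 7 held only 8 Gy arrays (replicates 1 to 3 and 4 to 5) and slides 4 and 5 only control arrays (replicates 1 to 3 and 4 to 5), so slide and serum cannot be told apart there except through the spread between slides of 1 group. The sets were scanned on different days.

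With 8 Gy serum the chaperones split: 1 probe each of Hspa1b, Hspa8, Hsp90ab1 and Stip1 rose, while 2 probes of Hspa4l and 1 each of Dnajb1 and Hspb1 fell against 20-day control serum. With 4 Gy serum none of the 17 probes passed the test. The threshold was an adjusted p of 0.05 (limma, Benjamini-Hochberg over all tested probes). With 8 Gy serum 4 of 17 probes rose and 4 fell, where 20.6% of all 26226 tested probes rose and 27.4% fell. Under this scaling the chaperones were thus called about as often as any probe. The median change over the 17 probes was 0.06, against −0.06 over all tested probes, and it was 0.24 after quantile normalization, 0.29 after cyclic loess and −0.08 under scaling to the array median. With 4 Gy serum 0 of 17 rose and 0 fell, where 3.86% and 1.4% of all tested probes did. The members' changes there lay between −0.44 and 0.43, the smallest adjusted p was 0.101, and 3 probes had an unadjusted p under 0.05 in limma. The split at 20 days depended on the scaling. It was 7 higher and 2 lower after quantile normalization, where 20.31% and 24.25% of all tested probes were. After cyclic loess it was 10 and 2, where 21.96% and 23.35% of all tested probes were. After normexp background correction it was 1 and 3, where 17.06% and 23.13% were. Without 20-day control replicate 2 it was 7 and 4, where 21% and 26.66% were. Without 4 Gy replicate 1 the 10-day counts were 1 higher and 2 lower, where 5.99% and 3.1% of all tested probes were. Without 4 Gy replicate 2 they were 1 and 0, where 6.05% and 3.5% were.

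**Figure D1:**
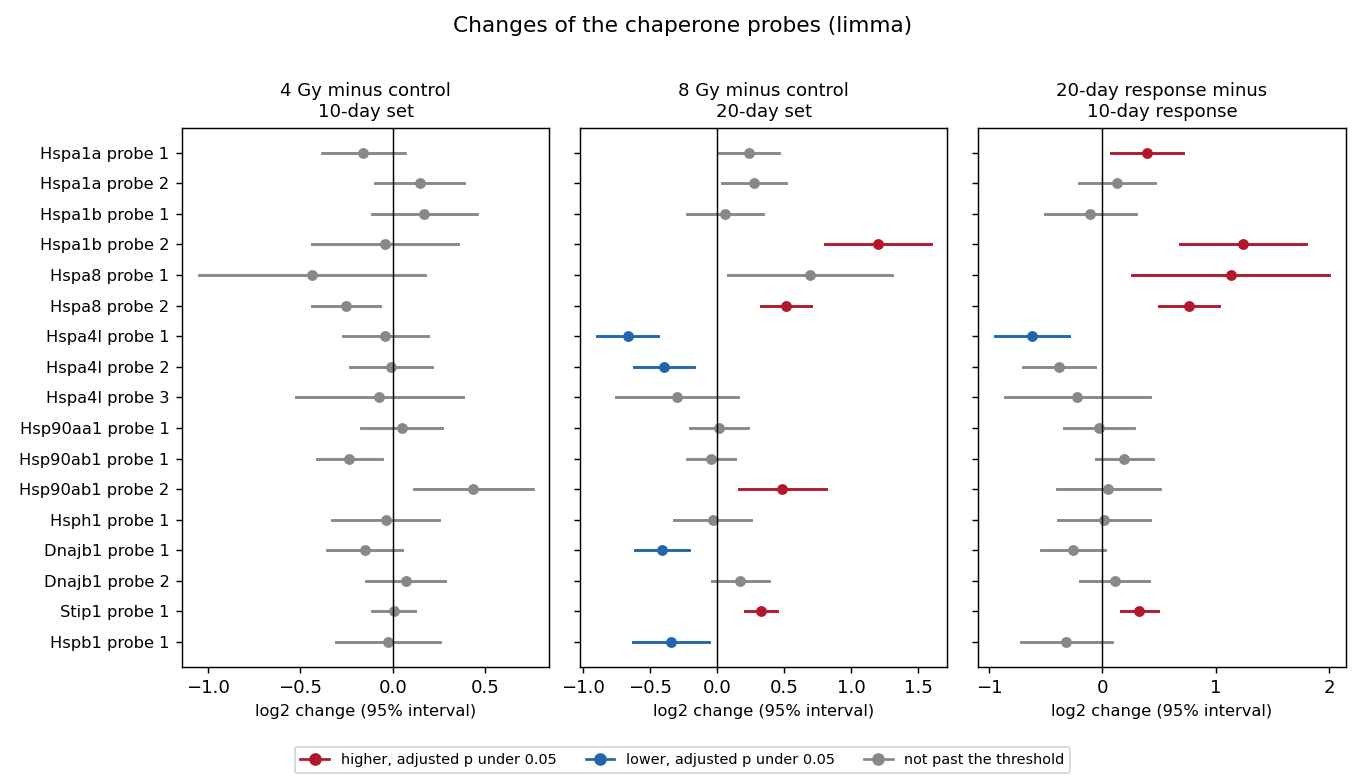
Log2 change of each of the 17 chaperone probes (points, with 95% intervals from limma) for 4 Gy minus control serum, 8 Gy minus control serum, and the difference between both responses. Coloured probes passed an adjusted p of 0.05: none in the left panel, 4 higher and 4 lower in the middle panel, 5 higher and 1 lower in the right panel.

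Hspa1a and Hspa1b encode the heat-inducible HSP70 and lie side by side on chromosome 17 (34969359 to 34972156 and 34956429 to 34959238 in GRCm38.p6). Their promoters are shown because the array measured both genes with separate probes and because both hold a match to the 2-unit motif of a heat shock element. In the RefSeq table (GRCm38.p6) 247 of the 250 bases before their starts are identical, with the differences C44T, T47C and T249G, counted from 1 at the 5′ end of the printed stretch with the base of Hspa1a first. The first sequence is at chr17:34972157-34972406 and the second at chr17:34959239-34959488, both on the minus strand and 5′ to 3′, with the match in capitals.
Hspa1a: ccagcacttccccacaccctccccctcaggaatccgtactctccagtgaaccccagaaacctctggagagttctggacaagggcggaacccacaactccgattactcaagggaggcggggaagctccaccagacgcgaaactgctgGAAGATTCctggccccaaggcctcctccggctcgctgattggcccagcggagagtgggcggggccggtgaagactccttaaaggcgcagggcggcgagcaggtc
Hspa1b: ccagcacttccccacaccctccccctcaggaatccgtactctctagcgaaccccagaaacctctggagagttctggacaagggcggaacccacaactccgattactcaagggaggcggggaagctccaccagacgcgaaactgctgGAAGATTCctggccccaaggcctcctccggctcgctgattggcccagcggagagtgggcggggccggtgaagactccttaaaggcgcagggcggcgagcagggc

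The motif searched was GAANNTTC or TTCNNGAA, each its own reverse complement, in the 250 bases before a start. It occurred in 12.8% of 32851 RefSeq promoters and in 5 of the 9 promoters listed for the members. These 9 promoters belong to 7 of the member genes, and Hspa8, Hsp90aa1 and Hsp90ab1 had no promoter in the search. The longer form, in which the next alternating unit follows after any 2 bases, occurred in 0.466% of all promoters and in 0 of the 9. The other matches were in Hspb1, with 2 matches within chr5:135887786-135887845 on the plus strand, and in both listed promoters of Hsph1, which share 1 match within chr5:149636346-149636385 on the minus strand. They are shown with 16 bases on either side, since Hspb1 fell and Hsph1 did not pass the test with 8 Gy serum.
Hspb1: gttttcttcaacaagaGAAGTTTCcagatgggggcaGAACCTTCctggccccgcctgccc
Hsph1: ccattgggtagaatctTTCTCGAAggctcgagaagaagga
No match was found in the listed promoters of Dnajb1, Hspa4l and Stip1. A stretch listed for Dnajb1 (chr8:83608298-83608547) lies within the gene. Whether a match acts as a heat shock element was not tested. With 8 Gy serum 1 of 2 probes of Hspa1b rose, and those of Hspa1a and Hsph1 did not pass the test. Hspb1 fell by a call that held in 9 of 24 alternative settings. Genes with a match thus took no common course.

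Hspa1b rose on 1 of its 2 probes. Probe 2 (A_52_P304902) read −3.58, −3.70, −3.73, −3.40 and −3.78 with 8 Gy serum, against −4.37, −5.73, −4.50, −4.80 and −4.79 with 20-day control serum. All 8 Gy arrays were above all control arrays, of which replicate 2 did not clear the background. The change was 1.20 ± 0.19 (SE, n = 5 arrays per group), or 2.30-fold (adjusted p = 4.4e-05). In the 10-day set the probe averaged −4.17 ± 0.18 with 4 Gy serum, against −4.13 ± 0.22 with 10-day control serum (SD, n = 5 each; adjusted p = 0.933). The response at 20 days exceeded that at 10 days by 1.24 ± 0.27 (adjusted p = 0.00144). Under normexp the change with 8 Gy serum was 0.49 (adjusted p = 7.3e-04) and the difference 0.38, which did not pass (adjusted p = 0.0568). Probe 1 of Hspa1b (A_52_P52803) did not show this: it averaged −0.50 ± 0.21 with 8 Gy serum and −0.56 ± 0.30 with 20-day control serum, a change of 0.06 with a 95% interval of −0.22 to 0.34. Probe sequences were not used here, so whether a probe also reads Hspa1a is not known, and the probes of these near-identical copies are reported as uncertain. Why they disagree was not tested.

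Neither probe of Hspa1a passed the test with either serum. Probe 1 (A_51_P117952) read 1.09, 1.02, 1.12, 1.19 and 1.00 with 8 Gy serum, against 0.55, 1.18, 1.11, 0.61 and 0.79 with 20-day control serum. The 8 Gy arrays were close together, and 3 control arrays lay below them and 2 within their range, with a change of 0.24 (adjusted p = 0.0755). Probe 2 (A_52_P82741) averaged 1.17 ± 0.17 with 8 Gy serum and 0.90 ± 0.28 with 20-day control serum, a change of 0.27 (adjusted p = 0.0547). Probe 1 passed without 20-day control replicate 2 (0.32, adjusted p = 0.014) or replicate 3 (0.30, adjusted p = 0.0257). It also passed without the control arrays of slide 4 (0.38, adjusted p = 0.00242), and probe 2 without those of slide 5 (0.37, adjusted p = 0.0269). Probe 2 passed without 8 Gy replicate 2 (0.33, adjusted p = 0.0309) and without 20-day control replicate 2 (0.34), 4 (0.31) or 5 (0.31), with adjusted p between 0.0181 and 0.0447. At 4 Gy, probe 1 changed by −0.16 (adjusted p = 0.424) and probe 2 by 0.14 (adjusted p = 0.516). The difference between the responses was 0.40 ± 0.15 for probe 1 (adjusted p = 0.0477) and 0.13 for probe 2 (adjusted p = 0.56). That call of probe 1 ended on leaving out any of 17 of the 20 arrays (0.32 to 0.42, adjusted p 0.0517 to 0.087), the exceptions being 10-day control replicate 5 and 20-day control replicates 2 and 3. It was 0.14 under normexp (adjusted p = 0.416).

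Hspa8, the constitutive HSP70 (chromosome 9, 40801276 to 40805202), rose on probe 2 (A_52_P12877) with 8 Gy serum. The probe read 6.30, 6.26, 6.19, 6.08 and 6.11 with 8 Gy serum, against 5.72, 5.68, 5.53, 5.69 and 5.76 with 20-day control serum. The groups did not overlap, and the change was 0.51 ± 0.09, or 1.43-fold (adjusted p = 1.2e-04). On 4 Gy arrays it read 6.12, 5.92, 5.73, 5.64 and 5.68, against 6.18, 6.14, 6.11, 6.0 and 5.92 with 10-day control serum. The low values were the 3 arrays of slide 3. The change of −0.25 ± 0.09 did not pass the test (adjusted p = 0.101), although it did without 4 Gy replicate 1 (−0.33, adjusted p = 0.0167), and between the arrays of slide 2 it was 0.10. The difference between the responses was 0.77 ± 0.13 (adjusted p = 1.5e-04). Under normexp background correction neither passed the test: the change with 8 Gy serum was 0.16 (adjusted p = 0.468) and the difference 0.30 (adjusted p = 0.356).

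Probe 1 of Hspa8 (A_51_P170371) separated the control slides of the 20-day set. It read 6.43, 6.76, 6.44, 6.83 and 6.82 with 8 Gy serum, against 6.02, 5.07 and 5.06 on slide 4 and 6.81 and 6.85 on slide 5 with 20-day control serum. The control arrays of slide 5 thus lay within or above the 8 Gy range and those of slide 4 below it, a gap of 1.45 between slides of 1 group. The change over all arrays was 0.69 ± 0.29 and did not pass the test (adjusted p = 0.0576). It passed after quantile normalization (0.92, adjusted p = 0.0146) and after cyclic loess (1.04, adjusted p = 0.00857). It was 1.27 without the control arrays of slide 5 (adjusted p = 1.5e-04), 0.90 without 20-day control replicate 4 (adjusted p = 0.0131) and 0.92 without replicate 5 (adjusted p = 0.0112). On 4 Gy arrays the probe averaged 6.79 ± 0.33, against 7.22 ± 0.22 with 10-day control serum, a change of −0.44 (adjusted p = 0.423). The difference between the responses was 1.13 ± 0.41 (adjusted p = 0.0393). It no longer passed without any of 11 arrays (0.90 to 1.11, adjusted p 0.0593 to 0.0694): 4 Gy replicates 3 to 5, 10-day control replicates 1 to 3, 8 Gy replicates 2, 4 and 5, and 20-day control replicates 2 and 3.

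**Figure D2:**
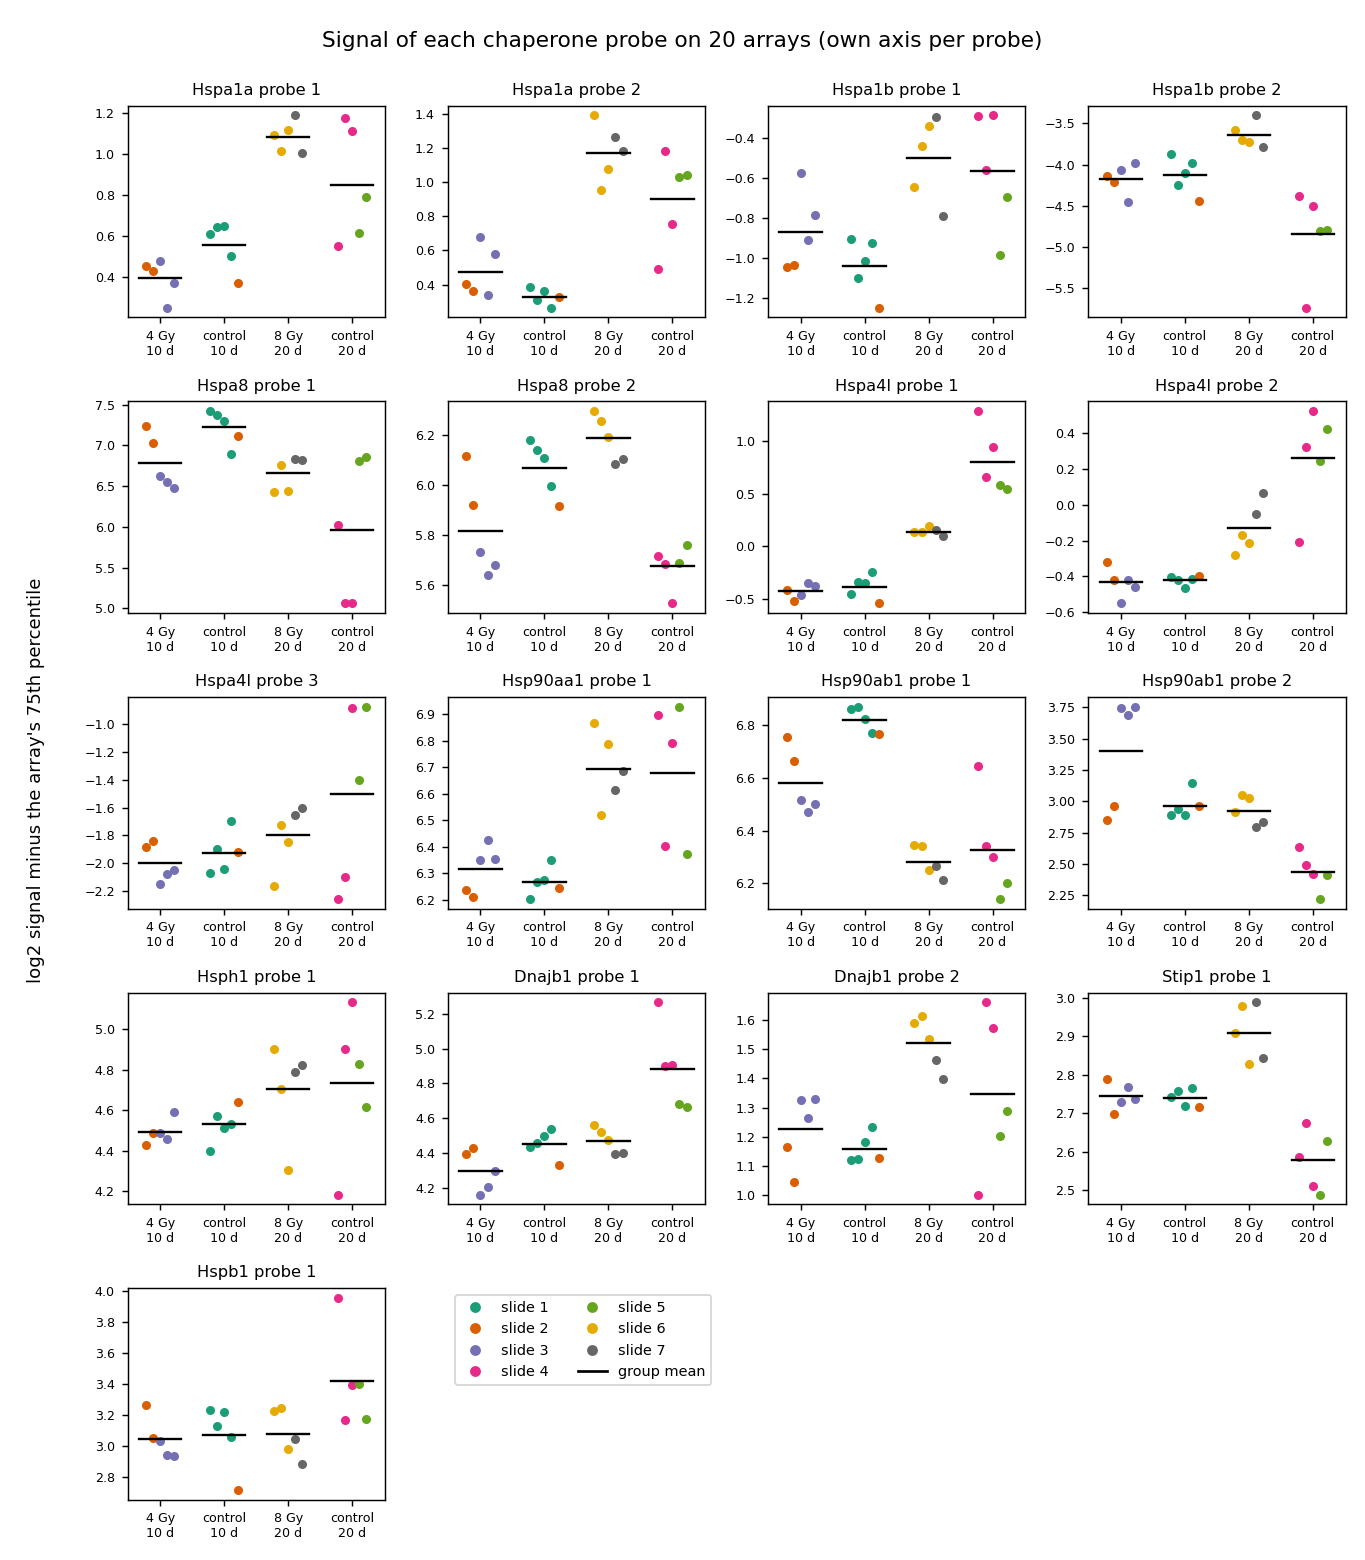
Log2 signal minus the 75th percentile of the array (vertical axes, a separate scale for each probe) of the 17 chaperone probes in the 4 serum groups, with 1 point per array coloured by slide and a line at the group mean. Hspa8 probe 2 and Stip1 are higher on every 8 Gy array than on every 20-day control array, and Hspa4l probe 1 is lower on every one.

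Hspa4l, an HSP110 family gene known for its expression in testis and under osmotic stress in mice, lies on chromosome 3 (40744500 to 40796103). It fell with 8 Gy serum on 2 of its 3 probes. Probe 1 (A_51_P517928) read 0.13, 0.13, 0.19, 0.15 and 0.09 with 8 Gy serum, against 1.29, 0.66, 0.95, 0.58 and 0.55 with 20-day control serum. Every 8 Gy array was below every control array, with an SD of 0.04 among 8 Gy arrays and 0.31 among control arrays. The change was −0.66 ± 0.11 (adjusted p = 7.4e-05), and −0.42 without the control arrays of slide 4 (adjusted p = 2.8e-04). In the 10-day set the probe averaged −0.43 ± 0.07 with 4 Gy serum and −0.39 ± 0.11 with control serum (adjusted p = 0.88), and the responses differed by −0.62 ± 0.15 (adjusted p = 0.00436).

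Probe 2 of Hspa4l (A_52_P667923) read −0.28, −0.17, −0.21, −0.05 and 0.07 with 8 Gy serum, against −0.21, 0.33, 0.52, 0.25 and 0.43 with 20-day control serum. The groups overlapped through control replicate 1, and the change was −0.39 ± 0.11 (adjusted p = 0.0049). Its adjusted p was 0.0566 with slide as a random block. Probe 3 (A_52_P652704) averaged −1.80 ± 0.22 with 8 Gy serum and −1.50 ± 0.66 with 20-day control serum, a change of −0.30 that did not pass the test (adjusted p = 0.271), and −0.48 without control replicate 1 (adjusted p = 0.0439). All 3 probes were thus below the control mean with 8 Gy serum. Their changes with 4 Gy serum were −0.04, −0.01 and −0.07, none past the threshold.

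Hsph1, which encodes HSP110 (chromosome 5, 149616843 to 149636498), had 1 probe (A_51_P110455). It read 4.90, 4.71, 4.30, 4.79 and 4.82 with 8 Gy serum, against 4.18, 4.90, 5.13, 4.83 and 4.61 with 20-day control serum. The control arrays reached both lower and higher than the 8 Gy arrays, and the change was −0.03 with a 95% interval of −0.32 to 0.26 (adjusted p = 0.877). The change with 4 Gy serum was −0.04 (−0.33 to 0.25, adjusted p = 0.911).

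Of the HSP90 genes, Hsp90aa1 is the inducible form (chromosome 12, 110691036 to 110696395). Its probe (A_51_P290231) read 6.87, 6.52, 6.79, 6.62 and 6.69 with 8 Gy serum, against 6.90, 6.40, 6.79, 6.93 and 6.37 with 20-day control serum. The groups overlapped fully, with a change of 0.02 and a 95% interval of −0.20 to 0.23 (adjusted p = 0.911), though it was 0.35 after cyclic loess (adjusted p = 0.0162). At 4 Gy it was 0.05 (−0.17 to 0.27, adjusted p = 0.851).

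Hsp90ab1, the constitutive HSP90 (chromosome 17, 45567778 to 45573261), had probes that disagreed. Probe 2 (A_52_P257204) read 2.91, 3.05, 3.03, 2.79 and 2.84 with 8 Gy serum, against 2.64, 2.49, 2.42, 2.22 and 2.41 with 20-day control serum. The groups did not overlap, and the change was 0.49 ± 0.15, or 1.40-fold (adjusted p = 0.0136). It was 0.35 under scaling to the array median (adjusted p = 0.0565), 0.27 under normexp (adjusted p = 0.178) and 0.41 without the control arrays of slide 5 (adjusted p = 0.0699). Probe 1 (A_51_P485043) averaged 6.28 ± 0.06 with 8 Gy serum and 6.33 ± 0.20 with 20-day control serum, a change of −0.04 (adjusted p = 0.701) that was 0.29 after cyclic loess (adjusted p = 0.00328).

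In the 10-day set Hsp90ab1 differed between slides within the 4 Gy group. Probe 2 read 2.85 and 2.96 on slide 2 and 3.75, 3.69 and 3.76 on slide 3 with 4 Gy serum, against 2.89, 2.94, 2.89, 3.15 and 2.96 with 10-day control serum. The 3 arrays of slide 3 were above every other array, and those of slide 2 lay within or just below the control range. The change over all arrays was 0.43 ± 0.15 (adjusted p = 0.105), and within slide 2, which held both groups, it was −0.06. Leaving out 4 Gy replicate 1 gave 0.57 (adjusted p = 0.0147) and leaving out replicate 2 gave 0.54 (adjusted p = 0.0281). Probe 1 read 6.76, 6.66, 6.52, 6.47 and 6.50 with 4 Gy serum, against 6.86, 6.87, 6.82, 6.77 and 6.77 with 10-day control serum. Here every 4 Gy array was below every control array, and the 4 Gy arrays averaged 6.50 on slide 3 and 6.71 on slide 2. The change was −0.24 ± 0.08 (adjusted p = 0.105), and within slide 2, which held only 1 control array, it was −0.06. It was −0.28 (adjusted p = 0.0481) without 4 Gy replicate 1. In the fit with the replicate number as a block its adjusted p was 0.043.

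**Figure D3:**
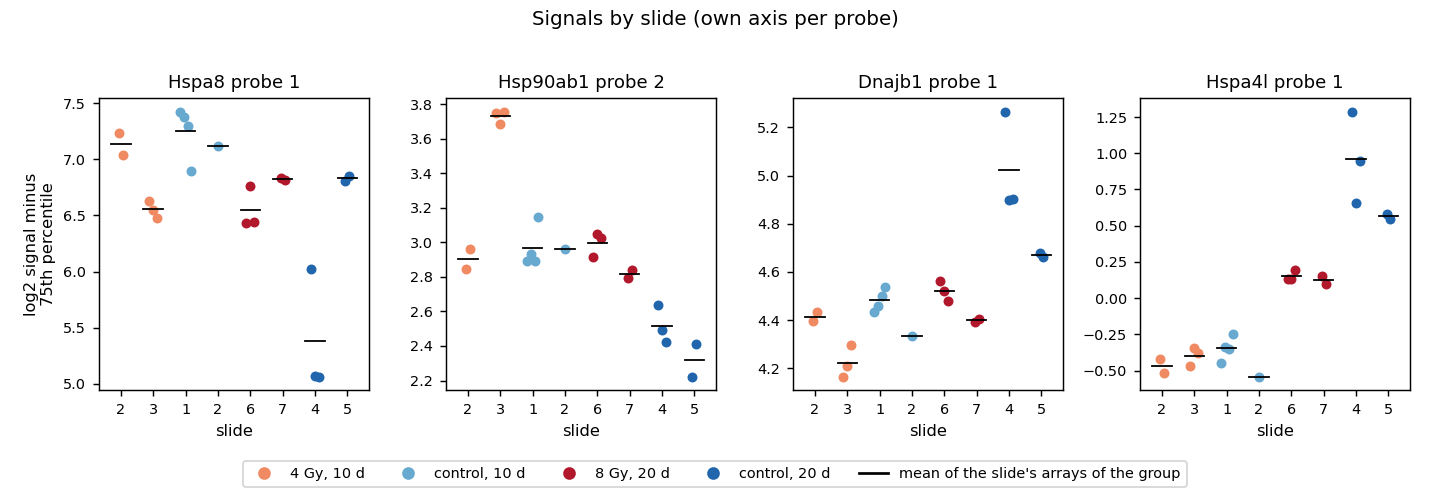
Log2 signal minus the 75th percentile of the array by slide (horizontal axis, slides in the order 4 Gy, 10-day control, 8 Gy, 20-day control) for Hspa8 probe 1, Hsp90ab1 probe 2, Dnajb1 probe 1 and Hspa4l probe 1, with a line at the mean of each slide's arrays of a group. Hspa8 probe 1 is 1.45 lower on slide 4 than on slide 5 among 20-day controls, and Hsp90ab1 probe 2 is 0.83 higher on slide 3 than on slide 2 among 4 Gy arrays.

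Dnajb1 encodes the J-domain co-chaperone HSP40 (chromosome 8, 83608175 to 83612653), and its probes also disagreed. Probe 1 (A_51_P153486) read 4.56, 4.52, 4.48, 4.39 and 4.40 with 8 Gy serum, against 5.27, 4.90, 4.90, 4.68 and 4.66 with 20-day control serum. Every 8 Gy array was below every control array, and the control arrays of slide 4 were the higher ones. The change was −0.41 ± 0.10 (adjusted p = 0.0017). It was −0.20 without the control arrays of slide 4 (adjusted p = 0.0522), −0.15 after quantile normalization (adjusted p = 0.156) and −0.16 after cyclic loess (adjusted p = 0.125). Probe 2 (A_52_P171663) averaged 1.52 ± 0.09 with 8 Gy serum and 1.35 ± 0.27 with 20-day control serum. The change of 0.18 did not pass the test (adjusted p = 0.166) but did without 20-day control replicate 2 (0.26, adjusted p = 0.0346). It also passed after cyclic loess (0.28, adjusted p = 0.0276). At 4 Gy, probe 1 changed by −0.15 (adjusted p = 0.384) and probe 2 by 0.07 (adjusted p = 0.769).

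Stip1, the adaptor between HSP70 and HSP90 (chromosome 19, 7020696 to 7040026), had the narrowest spread of the 17 probes in the 10-day control group. Its probe (A_51_P386880) read 2.91, 2.98, 2.83, 2.99 and 2.84 with 8 Gy serum, against 2.59, 2.67, 2.51, 2.49 and 2.63 with 20-day control serum. The groups did not overlap, and the rise was 0.33 ± 0.06, or 1.26-fold (adjusted p = 9.7e-05). On 4 Gy arrays it averaged 2.74 ± 0.04, against 2.74 ± 0.02 with 10-day control serum, a change of 0.00 with a 95% interval of −0.11 to 0.12 (adjusted p = 0.981). The responses differed by 0.33 ± 0.08 (adjusted p = 0.00362). Under normexp the change with 8 Gy serum was 0.13 (adjusted p = 0.266) and the difference 0.01 (adjusted p = 0.976).

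Hspb1, the small heat shock protein HSP25 (chromosome 5, 135887919 to 135889563), fell slightly with 8 Gy serum. Its probe (A_52_P404533) read 3.23, 3.25, 2.99, 3.05 and 2.89 with 8 Gy serum, against 3.96, 3.17, 3.39, 3.40 and 3.18 with 20-day control serum. The groups overlapped, and control replicate 1 was the highest array. The change was −0.34 ± 0.13 (adjusted p = 0.0432), and −0.21 without control replicate 1 (adjusted p = 0.123). It also missed the threshold without 8 Gy replicate 3, 4 or 5 (−0.32, −0.33 and −0.29, adjusted p 0.073 to 0.104) and without control replicate 3 or 4 (both −0.35, adjusted p 0.0587 and 0.0586). With the replicate number as a block within the 20-day set its adjusted p was 0.0783, and with slide as a random block 0.182. The change was −0.13 after quantile normalization (adjusted p = 0.393) and −0.15 after cyclic loess (adjusted p = 0.334). Under normexp it was −0.16 (adjusted p = 0.404). At 4 Gy the change was −0.02 (adjusted p = 0.946).

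Tested directly, the response at 20 days was above that at 10 days for 5 of the 17 probes and below it for 1, where 15.3% and 21.1% of all 26225 tested probes were. The 5 were Hspa1a probe 1, Hspa1b probe 2, both probes of Hspa8 and Stip1, and the 1 was Hspa4l probe 1. Under normexp the counts were 0 and 3, where 10.75% and 18.76% of all tested probes were. With slide as a random block they were 3 and 1, where 8.94% and 11.3% were. The median difference was 0.05 over the chaperone probes and −0.07 over all tested probes. Of the remaining 11 probes, the differences lay between −0.38 (Hspa4l probe 2, adjusted p = 0.0525) and 0.19 (Hsp90ab1 probe 1, adjusted p = 0.213).

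Control serum itself went with large differences between the sets. Between 20-day and 10-day control serum 8 of the 17 chaperone probes were higher and 6 lower, where 35.4% and 32.3% of all tested probes were. The members' median was 0.29, against 0.02 over all tested probes, but 0.02 after quantile normalization and 0.01 after cyclic loess, against −0.02 over all probes in both. Higher with 20-day control serum were Hspa4l probe 1 (1.19 ± 0.11, adjusted p = 1.4e-08) and probe 2 (0.69), Hspa1a probe 1 (0.29) and probe 2 (0.57), Hspa1b probe 1 (0.48), Dnajb1 probe 1 (0.43), Hsp90aa1 (0.41) and Hspb1 (0.35). Lower were Hspa8 probe 1 (−1.26) and probe 2 (−0.40), Hspa1b probe 2 (−0.71), both probes of Hsp90ab1 (−0.53 and −0.49) and Stip1 (−0.16). The probes of Hspa1b were thus called in opposite directions. Several of these calls depended on the scaling. Dnajb1 probe 1 was at 0.04 after quantile normalization and 0.01 after cyclic loess (adjusted p 0.718 and 0.904), and Hspb1 at 0.02 and 0.05 (0.885 and 0.755). Hsp90aa1 was at 0.00 after quantile normalization (adjusted p = 0.996) and turned to −0.18 after cyclic loess. Hspa1a probe 1 did not pass after cyclic loess (0.20, adjusted p = 0.108), nor Stip1 under scaling to the array median (−0.03, adjusted p = 0.696). Under normexp Hspa1b probe 1 was at 0.06 (adjusted p = 0.767), Hspa8 probe 2 at −0.20 (0.283), Hsp90ab1 probe 2 at −0.33 (0.062), Hsp90aa1 at 0.29 (0.151) and Hspb1 at 0.16 (0.303), and the signs of Stip1 (0.13) and Hspa1b probe 2 (0.04) turned. Hspb1 and Hspa1a probe 1 did not pass the test without 10-day control replicate 5 (0.26 and 0.25), and Hspb1 without 20-day control replicate 1 (0.21), nor Hspa1a probe 1 without 20-day control replicate 2 (0.21) or 3 (0.23).

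Macrophage markers moved with the sets. Their summed level, on a linear scale relative to the 75th percentile, was 40.1 to 58.0 on 20-day control arrays and 1.73 to 2.42 on 10-day control arrays (14 of 15 markers had a probe). Adgre1 (mean 3.74, SD 0.11) was counted well above background on only 3 of the 5 20-day control arrays. A missing value adds nothing to a sum, so the low end of 40.1 may hold fewer markers. All 21 tested macrophage probes were higher with 20-day control serum, with a median of 4.07. The level was 41.5 to 50.8 with 8 Gy serum, and with 4 Gy serum it was 2.31 to 2.78. Of the 20 fibroblast probes 15 were lower and 2 higher with 20-day control serum, with a median of −0.70. Over all tested probes 32.3% were lower and 35.4% higher. In such cultures fewer cells of a type and less RNA per cell cannot be told apart. Set, scan day and slide cannot be told apart either, and the part of the macrophage signal in the chaperone differences was not tested. Against 20-day control serum, 8 Gy serum went with 2 macrophage probes higher and 5 lower of 21, and with 10 fibroblast probes higher and 1 lower of 20. Over all tested probes 20.6% were higher and 27.4% lower with 8 Gy serum. Of 7 endothelial markers 5 were well above background on all 5 arrays of each 10-day group, and 3 on those of each 20-day group. The 7 epithelial markers gave the same counts. Endothelial Pecam1 and Tie1 were not well above background on any array, and epithelial Cdh1 and Epcam on none of the 20-day arrays.

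The other genes of the chaperone network were taken as 9 lists with 92 genes, of which 83 were tested with 139 probes. With 8 Gy serum 30 of these probes were higher and 47 lower (21.6% and 33.8%), where 20.6% and 27.4% of all tested probes were. Among other HSP70 and HSP110 genes 6 of 12 probes were higher and 2 lower, and among ER chaperones of these families 1 of 16 was higher and 8 were lower. Prefoldin and chaperonin genes had 3 of 17 higher and 7 lower, HSP90 co-chaperones 8 of 31 and 12, other J-domain genes 5 of 20 and 7, and heat shock factors and regulators 2 of 9 and 3. Mitochondrial chaperones had 3 of 16 higher and 4 lower, other small heat shock proteins 1 of 10 and 3, and nucleotide exchange factors 1 of 8 and 1.

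**Figure D4:**
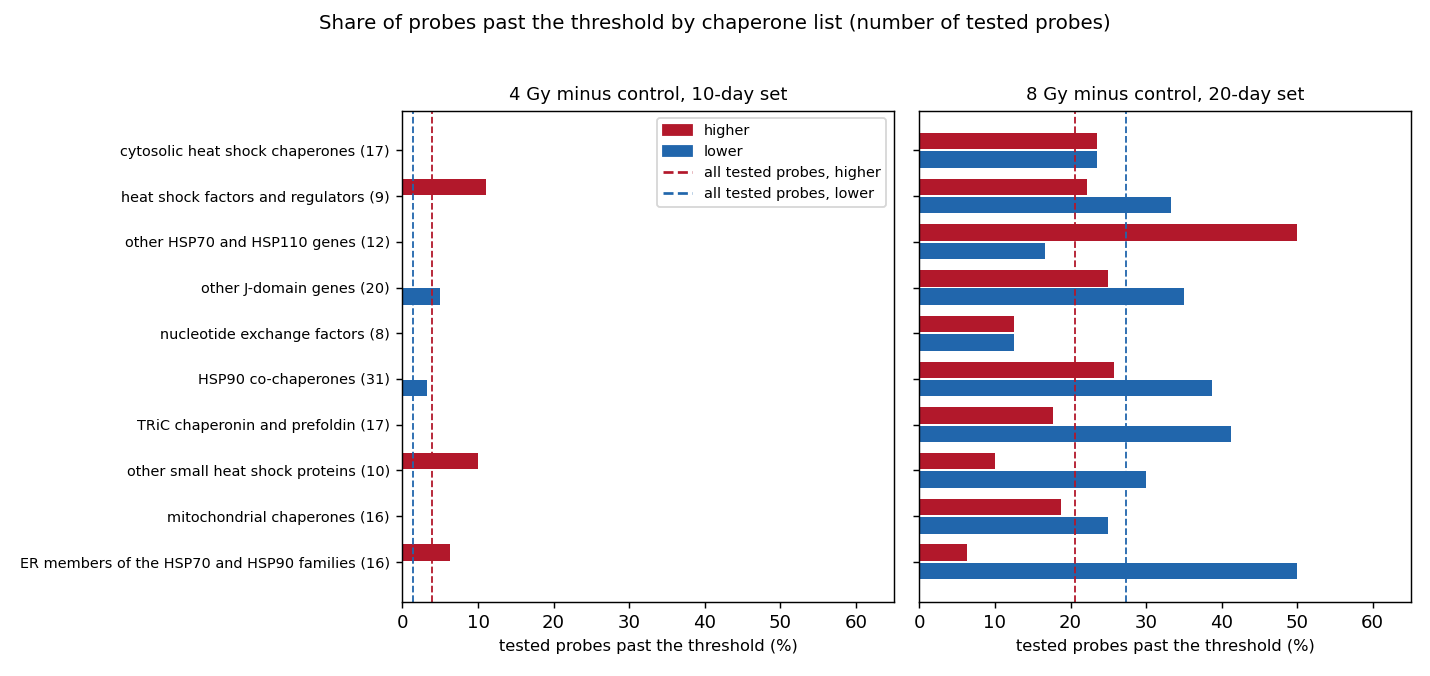
Percentage of tested probes higher (red) and lower (blue) past an adjusted p of 0.05 for the cytosolic heat shock chaperones and 9 other chaperone lists, with 4 Gy serum on the left and 8 Gy serum on the right. Dashed lines give the same percentage over all tested probes (3.86% and 1.4% on the left, 20.6% and 27.4% on the right), and the 17 chaperone probes have no bar on the left and 23.5% in each direction on the right.

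Among HSP90 co-chaperones, which steer HSP90 through its cycle, the kinase adaptor gene Cdc37 averaged 2.77 ± 0.08 with 8 Gy serum and 2.08 ± 0.11 with 20-day control serum, a rise of 0.69 ± 0.07 on 1 probe (adjusted p = 2.9e-07), while its other probe changed by −0.48 (adjusted p = 0.00193). The phosphatase gene Ppp5c rose by 0.73 on 1 of 2 probes and the immunophilin gene Fkbp4 by 0.63 and 0.54. Another immunophilin gene, Ppid, averaged 4.62 ± 0.08 with 8 Gy serum and 5.62 ± 0.12 with 20-day control serum, a change of −1.01 ± 0.08 (adjusted p = 1.4e-08), and its other probe by −0.66. Ptges3, which encodes a co-chaperone of HSP90, changed by −0.85 on 1 of 2 probes. Co-chaperones of HSP90 thus went in both directions.

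The prefoldin subunit gene Pfdn4, whose product delivers actin and tubulin to the chaperonin, changed by −1.06 ± 0.09 (adjusted p = 3.6e-08), and Pfdn2 by −0.66. The J-domain genes Dnaja2 and Dnajb6 changed by −0.83 and −0.84 and Dnaja4 by 1.12 and 0.44 on its probes. Hikeshi, which carries HSP70 into the nucleus, changed by −0.56 (adjusted p = 3.9e-06), and the crystallin gene Cryab by −0.65. In mitochondria 1 of 2 probes of Dnaja3 (1.15) and Trap1, the mitochondrial HSP90 (0.55), rose, and Grpel1, an exchange factor, changed by −0.68 and −0.57 on 2 of 3 probes. In the ER Hyou1 changed by −0.60 and Dnajc10 by −0.57, −0.40 and −0.34 on 3 of 4 probes. Probes of Hspa4 (0.68 and −0.26) and of Hspa13 (0.72 and −0.45) passed the test in opposite directions, as the members' own probes of Hsp90ab1 and Dnajb1 disagreed.

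With 4 Gy serum 3 of the 139 probes were higher and 2 lower (2.16% and 1.44%). Of all tested probes 3.86% were higher and 1.4% lower, so the lists were not called more often than other probes. Hsf1, which encodes the main transcription factor of the heat shock response, had 1 of 2 probes higher (A_51_P102943). It read −1.82, −1.73, −0.79, −0.69 and −0.76 with 4 Gy serum, against −2.25, −2.10, −2.15, −1.82 and −1.82 with 10-day control serum. The high arrays were the 3 of slide 3. The change was 0.87 ± 0.20 (adjusted p = 0.0198), and 0.04 in a fit with slide as a fixed block. That fit compares only the arrays of slide 2, 4 Gy replicates 1 and 2 against 10-day control replicate 5. With 1 control array it cannot decide whether a change is present, and only its sizes are given. The other probe of Hsf1 changed by 0.20 (adjusted p = 0.411). Dnajc3, an ER co-chaperone gene, read 0.74, 0.73, 1.1, 1.39 and 1.13 with 4 Gy serum, against 0.53, 0.51, 0.53, 0.63 and 0.59, and rose by 0.47 (0.15 with the slide block). The crystallin gene Cryaa had its probe well above background on every 4 Gy array and on no 10-day control array. Its measured change was 1.17, and 0.32 with the slide block. Counted from the lowest signal well above background on each control array, the rise was 1.49-fold. That value is no lower limit, since the change with the slide block is under it, and the size of the rise is not known. Fkbp4 read 2.53, 2.28, 1.85, 1.87 and 1.94 with 4 Gy serum, against 2.59, 2.64, 2.64, 2.40 and 2.43, and changed by −0.44 (−0.02 with the block). Dnajc2, a ribosome-bound J-domain gene, changed by −0.55 (0.02 with the block). All 5 changes missed the threshold without any 1 of 4 Gy replicates 3 to 5 (adjusted p 0.0716 to 0.125), although their sizes changed little: 0.75 to 0.78 for Hsf1, 1.03 to 1.17 for Cryaa, 0.37 to 0.45 for Dnajc3, −0.40 to −0.38 for Fkbp4 and −0.51 to −0.49 for Dnajc2. These replicates are the arrays of slide 3, on which Hsp90ab1 probe 2 also stood apart. With slide as a random block 0 probes of the whole array were higher with 4 Gy serum and 0.00381% were lower.

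For 8 of the members the gene with the most similar course over the 20 arrays was found by the root mean square difference of centred signals, among 18527 tested probes of named genes outside the chaperone lists. With the brightest probe of each this gave Tirap for Stip1 (0.0627), Vps26b for Hsp90ab1 (0.0736), Rmdn1 for Hspa4l (0.0848), Acsl5 for Hspa1a (0.0953), Haus8 for Hspb1 (0.12), Frmd8 for Hsp90aa1 (0.124), Cmas for Hspa1b (0.134) and Gspt1 for Hspa8 (0.249). These probes share the same arrays, slides and scaling, and each is the closest of all candidates by construction. The members' own root mean square deviation was 0.128 for Stip1, 0.241 for Hsp90ab1, 0.521 for Hspa4l and 0.304 for Hspa1a. It was 0.247 for Hspb1, 0.245 for Hsp90aa1, 0.295 for Hspa1b and 0.632 for Hspa8. A small difference can therefore come from a flat probe. Rmdn1 averaged 0.35 ± 0.10 with 8 Gy serum and 1.12 ± 0.29 with 20-day control serum, close to the step of Hspa4l probe 1, and Gspt1 averaged 2.89 ± 0.07 and 1.98 ± 0.85, with a control spread like that of Hspa8 probe 1 (SD 0.88).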

How the data were processed

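Total RNA labelled with Cy3 was hybridised to Agilent one-colour arrays, 1 sample per array (20 arrays). The authors deposited scanner files with a processed intensity per spot, extracted with Agilent Feature Extraction 10.5.1.1 per the file headers (11.0 per the submitters' processing notes), and quality marks of another kind. The authors' deposited value table holds log2 values centred within each set and served as an alternative. Outlier spots (50 to 181 per array) were left out, spots of a probe averaged, and the 75th percentile of log2 intensity subtracted. Accessions were named through RefSeq (GRCm38.p6). Probes whose signal cleared the background on every array of some group were fitted together with limma 3.58.1 (R 4.3.3; lmFit, eBayes, two-sided, 1 mean per group), with Benjamini-Hochberg adjustment, threshold 0.05, after the fit had been tested on simulated data. The scanner files' median signals stood in for mean signals under normexp (offset 50).

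All members were named, and from each other list at most the 3 highest and 3 lowest changes past the threshold. The members, lists and markers were chosen with earlier results of these data known. Deviations of same-numbered arrays correlated at 0.131 to 0.402 over probes in the 5 pairs of the 20-day set. In the 10-day set they correlated at −0.05 to 0.163, so the ranges overlap. Arrays of different numbers were not compared. In both 20-day groups replicates 1 to 3 and 4 to 5 also lay on separate slides. Whether the replicate number pairs samples is therefore not known. The number of arrays limits the precision. The gene most similar in course to Dnajb1 is not reported here.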

Additional observations from a re-analysis of the deposited data

Results flagged for a closer look

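Of 68 sets of 5 arrays (17 probes in 4 groups), 1 held an array far from the rest: 10-day control replicate 4 read 3.15 for Hsp90ab1 probe 2, against 2.89 to 2.96 on the other 10-day control arrays. Chance gives such a gap in about 1 of 20 sets. The response to 8 Gy serum in the 20-day set differed from the response to 4 Gy serum in the 10-day set, by the test of the difference itself, for 6 probes. The log2 difference was 1.24 for Hspa1b probe 2, 1.13 for Hspa8 probe 1, 0.77 for Hspa8 probe 2, 0.40 for Hspa1a probe 1, 0.33 for Stip1 and −0.62 for Hspa4l probe 1. Thus 5 of 17 were higher and 1 lower, where 15.3% and 21.1% of all tested probes were. The calls of Hspa1a probe 1 and Hspa8 probe 1 held in only 8 and 14 of 29 alternatives.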

How the results depend on the processing

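With 8 Gy serum, 162 of 187 values of the 8 called probes under the alternatives kept direction and call, 25 missed the threshold and 0 reversed. Hspa1b probe 2 (22 alternatives) and Hspa4l probe 1 (24) passed in each that could be run. Hspa8 probe 2 and Stip1 missed it in normexp only, and Hspb1 passed in 9 of 24. Higher and lower counts, 4 each, became 7 and 2 (quantile), 10 and 2 (cyclic loess) and 1 higher (normexp). With 1 probe per gene 1 of only 10 tested was higher, where 17.28% of all probes in that fit were. The lower count was 2 with slide as a random block and in the deposited table, where 18.36% and 21.36% of all tested probes were lower. With 4 Gy serum 1 probe was lower, in place of 0, under normexp, with only the groups compared, with the replicate block and in the deposited table. In these settings 0.835%, 5.23%, 2.38% and 5.25% of all tested probes were lower. For the difference, 5 higher became 0 (normexp) or 3 (no filter, slide as a random block, 1 probe per gene). Of all tested probes 10.75%, 8.6%, 8.94% and 12.21% were higher in these settings. The count of 1 lower became 2 (array median, and probes above background on all 20 arrays) or 3 (normexp). Of all tested probes 24.13%, 23.01% and 18.76% were lower there. Between the control sera 8 higher became 5 (cyclic loess, normexp), and 6 lower became 2 (normexp) or 3 (1 probe per gene). Of all tested probes 32.9% and 42.39% were higher in these settings, and 22.8% and 29.4% lower. The cause was not tested.

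Leaving out 1 array gave 0 to 1 higher and 0 to 2 lower with 4 Gy serum, 4 to 7 and 3 to 4 with 8 Gy serum, 3 to 5 and 1 to 2 for the difference, and 6 to 10 and 6 to 6 between the control sera. Reversed changes were Hspa1b probe 2 (0.0413, normexp), Hsp90aa1 (−0.18, cyclic loess) and Stip1 (0.13, normexp) between the control sera, Dnajc2 with 4 Gy serum (0.0220, slide as a fixed block), and Bag3 (0.0868, normexp) and Hspd1 (0.0791, cyclic loess) with 8 Gy serum. Scaling to the array median moved the median of all probes by −0.14 with 8 Gy serum and by 0.13 between the control sera, and normexp moved the median between the control sera by 0.17. The replicate block over all groups gave 4 higher and 4 lower with 8 Gy serum, and within the 20-day set alone (chosen after seeing the data, as was leaving out the control arrays of a slide) 4 and 3, with Hspb1 the call lost. Over all groups it also took the difference of Hspa8 probe 1 to an adjusted p of 0.051. Dim probes such as Hspa1b probe 2 are limited by their signal over background.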
